A study of Mus musculus with 7 samples.

Results

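Mitosis genes, the genes that a cell switches on to condense its chromosomes, build a spindle and divide, were measured in mouse wound macrophages on day 3 (d3) and day 7 (d7) after wounding. A list of 40 such genes was matched by symbol to the array's probe sets, each probe set being a group of probes for 1 transcript. A probe set with 1 gene symbol was found for 38 of the 40 genes, 1 probe set each. Ccnb1 and Ccnf had none and were not analysed here. The 38 are a small part of the 30738 genes named in this way and of the 65956 probe sets tested.

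The cells came from polyvinyl alcohol sponges placed under the skin of the back of C57BL/6 mice, were pulled out with CD11b beads and sorted for F4/80, both surface proteins of macrophages. The d3 group holds 3 arrays (replicates 1, 3 and 4) and the d7 group 4 arrays (replicates 5, 6, 7 and 8). The labels give no treatment other than wounding and no gene deletion, and neither age nor sex is given sample by sample. The C57BL/6 mice were bought at 8 weeks of age. The methods give 8 to 10 weeks as the age of the mice in the experiments, which included both sexes. The labels call the samples biological replicates but do not say whether each came from 1 mouse or a pool, so the p-values measure only the spread between these samples. The 2 days compare an early with a later stage of the wound macrophage.

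Mitosis is driven by cyclin-dependent kinase 1 bound to A- and B-type cyclins, with Polo and Aurora kinases acting beside it at the centrosomes, centromeres and midzone. Most of its genes are silent in resting cells and are turned on together late in the cycle, through promoters on which the DREAM complex holds them off and MYB and FOXM1 complexes turn them on. Tissue macrophages can divide in place, and macrophages that come from blood monocytes can also enter the cycle, so the RNA of these genes is often read as a sign of dividing cells. In a bulk sample, fewer dividing cells and less RNA in each of them cannot be told apart.

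The promoters show what these genes share outside the arrays. The cell cycle genes homology region (CHR), read as TTTGAA or TTCGAA, is the site through which DREAM reaches late cell cycle genes, and the CCAAT box is bound by NF-Y. Both were searched on both strands (also as TTCAAA and ATTGG). The window of 300 bases ran from 250 bases before to 50 after an annotated RefSeq start of each gene. The end of a CCAAT box and the start of a CHR can share a base, and TTCGAA reads the same on both strands. Of the 40 listed genes, 35 had a promoter in the RefSeq table, and Aurkb, Ccna2, Dlgap5, Kif20a and Tpx2 did not. A CHR sequence stood in 28 of the 35 (80.0%), against 5854 of all 27025 genes with a promoter (21.7%). A CCAAT box stood in 27 (77.1%), against 11096 of all genes (41.1%), and both stood in 24 (68.6%), against 2328 (8.61%). Among 17492 protein-coding genes the shares were 20.2% for the CHR, 42.3% for the CCAAT box and 8.22% for both. A match of letters is a description and not a measured binding site.

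**Figure D1:**
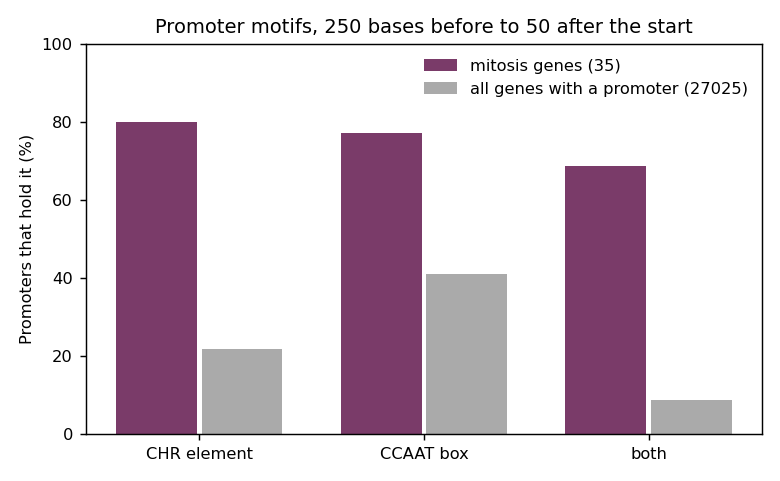
Share of promoters (percent, bars from 0) with a CHR sequence, a CCAAT box or both, for 35 mitosis genes and for all 27025 genes with a RefSeq promoter. The mitosis genes stand at 80.0%, 77.1% and 68.6% and all genes at 21.7%, 41.1% and 8.61%.

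The promoters printed here belong to the 5 genes whose d7 arrays all lay above all d3 arrays, shown because their levels separate the days. Each is written 5′ to 3′ on the gene's own strand, from RefSeq on build GRCm38.p6, with CHR sequences and CCAAT boxes in capitals. Cenpa lies at chr5:30666636-30666935 on the plus strand and Plk1 at chr7:122159185-122159484 on the plus strand. Mki67 lies at chr7:135716330-135716629, Ccnb2 at chr9:70421505-70421804 and Cdk1 at chr10:69352863-69353162, all on the minus strand.
Cenpa: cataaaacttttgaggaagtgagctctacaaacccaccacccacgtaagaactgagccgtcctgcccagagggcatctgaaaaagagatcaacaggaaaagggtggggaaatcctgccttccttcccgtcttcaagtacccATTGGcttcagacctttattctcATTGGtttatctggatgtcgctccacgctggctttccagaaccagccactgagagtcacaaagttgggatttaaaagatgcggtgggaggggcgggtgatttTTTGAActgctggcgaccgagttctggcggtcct
Plk1: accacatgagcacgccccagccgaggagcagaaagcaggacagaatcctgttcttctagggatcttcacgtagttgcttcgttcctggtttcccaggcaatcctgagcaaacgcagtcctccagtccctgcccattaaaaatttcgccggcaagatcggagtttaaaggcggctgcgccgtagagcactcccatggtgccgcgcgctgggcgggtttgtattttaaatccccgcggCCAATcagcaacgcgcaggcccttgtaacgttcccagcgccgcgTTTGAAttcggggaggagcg
Mki67: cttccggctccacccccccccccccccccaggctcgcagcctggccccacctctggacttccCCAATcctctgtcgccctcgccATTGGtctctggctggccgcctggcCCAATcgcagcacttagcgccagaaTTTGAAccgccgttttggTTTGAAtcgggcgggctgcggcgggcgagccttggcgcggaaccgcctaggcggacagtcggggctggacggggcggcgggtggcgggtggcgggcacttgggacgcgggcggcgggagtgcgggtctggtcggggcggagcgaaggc
Ccnb2: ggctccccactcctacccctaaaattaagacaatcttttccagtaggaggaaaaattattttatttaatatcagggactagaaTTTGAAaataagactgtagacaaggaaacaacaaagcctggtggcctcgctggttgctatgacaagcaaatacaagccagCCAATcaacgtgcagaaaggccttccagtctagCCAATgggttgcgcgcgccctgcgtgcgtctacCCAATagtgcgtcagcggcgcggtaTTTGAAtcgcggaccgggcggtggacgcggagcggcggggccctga
Cdk1: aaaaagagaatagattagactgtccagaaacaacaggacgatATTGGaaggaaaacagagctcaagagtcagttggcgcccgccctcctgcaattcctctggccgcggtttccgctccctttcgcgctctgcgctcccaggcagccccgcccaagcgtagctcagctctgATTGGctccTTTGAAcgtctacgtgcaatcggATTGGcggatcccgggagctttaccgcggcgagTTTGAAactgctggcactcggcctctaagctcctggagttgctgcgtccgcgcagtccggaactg
All 5 windows held both motifs. In Cenpa the CCAAT boxes began 109 and 86 bases before the annotated start and the CHR at base 17 after it, and Plk1 had the same order, with the CCAAT box 14 bases before the start and the CHR at base 31. In Ccnb2, CCAAT boxes began 87, 54 and 21 bases before the start, with 1 CHR at base 5 and another 167 bases before the start. Cdk1 had CHR sequences 71 and 15 bases before the start. In Mki67 the CHR sequences lay 116 and 98 bases before the start used for its window. The Cenpa and Mki67 windows were not set at the outer RefSeq gene ends (chr5:30666877 and chr7:135716450). Distances from those ends differ from the ones given, so distances are not compared between genes.

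No mitosis gene passed the test between the days, and most lay at or under the array background. Levels are log2 values as deposited, and the array background is the highest level of any antigenomic probe (a probe that matches no mouse sequence) on any array, 5.39. That is a strict cutoff. The array medians of the antigenomic probes ran from 2.86 to 3.09, under all d3 and d7 means of the 38 genes. Of the 38 genes, 8 had a mean above that background on both days (Ccna2, Aurka, Bub1b, Cenpa, Ndc80, Cdca8, Tpx2 and Mki67). Another 3 had one above it on d7 alone (Cdk1, Top2a and Ube2c). The other 27 lay at or under it on both days, with d3 and d7 means from 3.80 to 5.37. By the mean over all 7 arrays, 29 of the 38 (76.3%) lay at or under the background, beside 70.0% of all probe sets, and 30 (78.9%) reached the median level of all probe sets. A probe set's level also depends on its probes, so the genes are not ranked against each other.

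**Figure D2:**
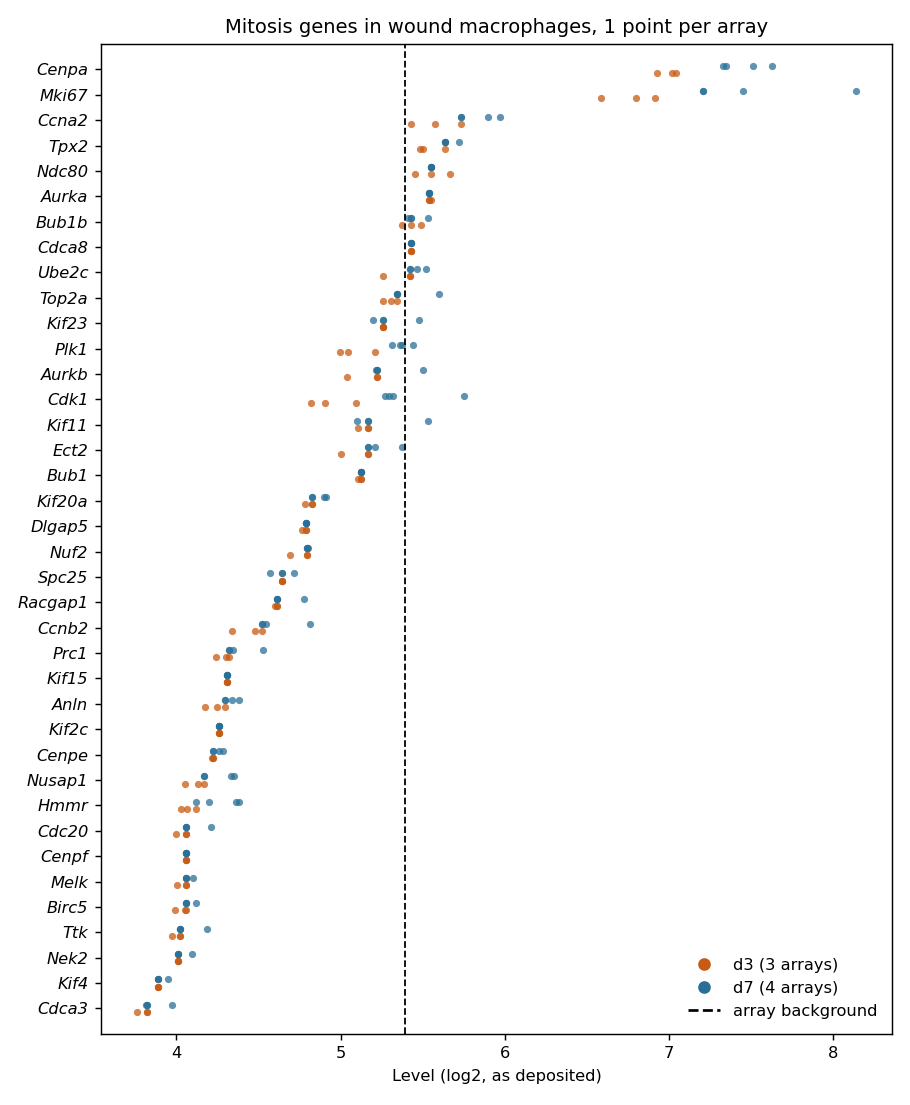
Level (log2, as deposited) of each of the 38 mitosis genes, 1 point per array, d3 in orange and d7 in blue, with genes ordered by their mean only for reading and the array background of 5.39 as a dashed line. Cenpa and Mki67 stand clear of the line on every array, and 27 genes have means at or under it on both days.

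Against all 65956 probe sets, limma with Benjamini-Hochberg adjustment called 0 of the 38 mitosis genes at an adjusted p under 0.05, where 77 probe sets were called in all (0.117%), 42 of them higher on d7 (0.0637%). At an unadjusted p under 0.05, 7 genes were on the higher side on d7 (Cenpa, Plk1, Cdk1, Mki67, Ccna2, Hmmr and Tpx2) and 0 on the lower. Of the 7, Plk1 and Hmmr lay at or under the background on both days. Of all probe sets, 3.32% (2192) were on the higher side, and 5054 met that cutoff in either direction. Every d7 array lay above every d3 array in 5 genes (2.62% of all probe sets) and below in 0 (3.38% of all probe sets). Of these 5, Plk1 and Ccnb2 lay at or under the background on both days. The d7 mean was the higher one in 32 genes, the lower one in Ndc80 and Aurka, and the same in Cenpf, Kif2c, Kif15 and Cdca8. Of the 32, 24 lay at or under the background on both days. Over all probe sets, 43.6% had the higher mean on d7 and 50.2% the lower. Median centring adds 0.02 to every difference, which turned the sign of Ndc80 and Aurka and moved the shares of all probe sets to 59.3% and 40.7%. The median difference over the 38 genes was 0.05 (range -0.01 to 0.73), beside -0.0009 over all probe sets. The methods' t-test with no adjustment gave 4 genes (Cenpa, Plk1, Cdk1 and Mki67), all higher on d7. It gave 3652 of all 65956 probe sets, 1626 of them higher on d7.

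**Figure D3:**
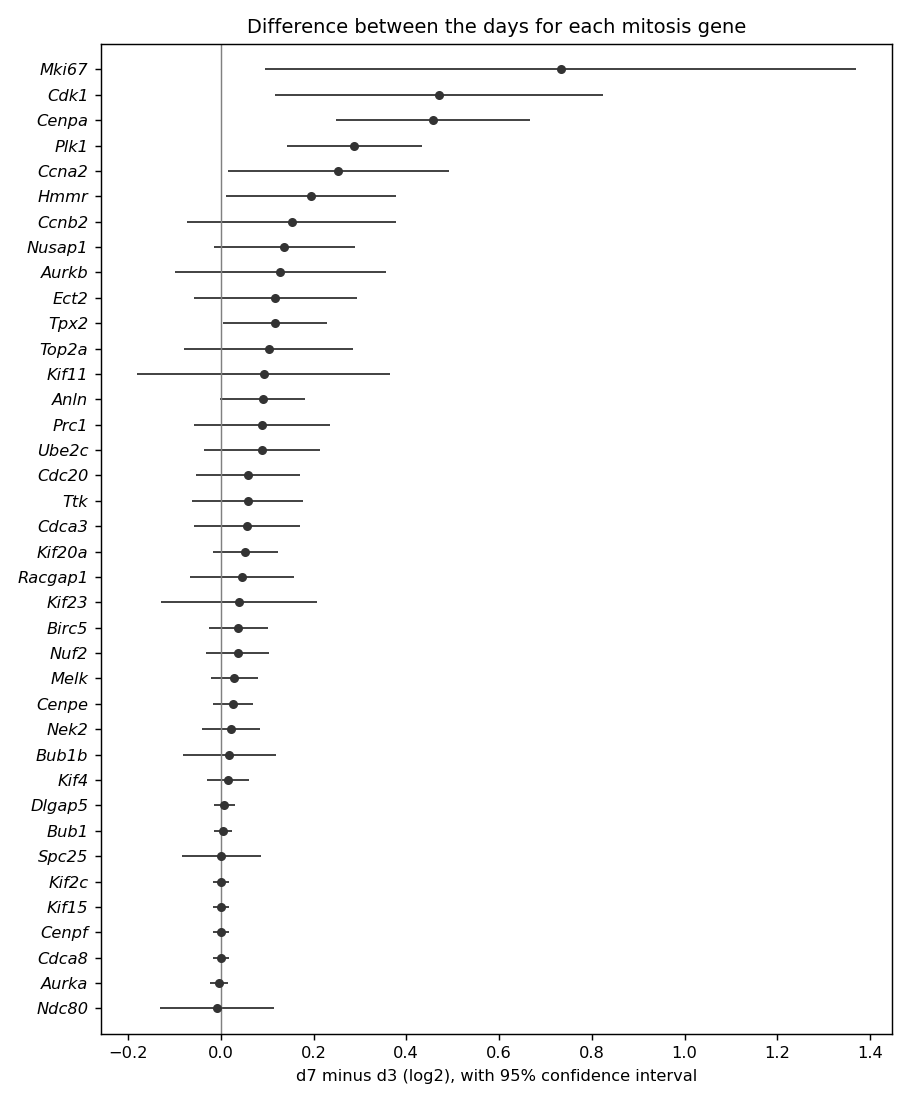
Difference between the d7 and d3 means (log2) of each of the 38 mitosis genes, with the 95% confidence interval from limma as lines and 0 as a grey line. Mki67 (0.73), Cdk1 (0.47) and Cenpa (0.46) lie farthest to the right, and Ndc80 (-0.01) lies farthest to the left.

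Of the cyclins and mitotic kinases, 7 of the 9 listed were measured, 0 passed the test, and 6 had the higher mean on d7. Cdk1, the kinase that starts mitosis, was 4.82, 5.10 and 4.91 on d3 replicates 1, 3 and 4 and 5.30, 5.32, 5.27 and 5.75 on d7 replicates 5 to 8. Its groups did not overlap, and d7 replicate 8 stood highest and was the only array above the background. The means were 4.94 ± 0.14 (SD, n = 3) and 5.41 ± 0.23 (SD, n = 4), the d3 mean under the background, with a difference of 0.47 (standard error 0.14, limma adjusted p = 0.623). Plk1, the Polo-like kinase of centrosomes and kinetochores, was 5.04, 5.21 and 5.00 on d3 and 5.44, 5.37, 5.36 and 5.31 on d7. Its groups did not overlap either, but 3 of the 4 d7 values and both means lay under the background. The deposited values differed by 0.29 (standard error 0.06, limma adjusted p = 0.296), with both means only bounded by the background.

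Ccna2 encodes cyclin A2, which serves both DNA synthesis and entry into mitosis. It was 5.58, 5.73 and 5.43 on d3 and 5.90, 5.73, 5.73 and 5.97 on d7, so that d3 replicate 3 met d7 replicates 6 and 7 at the same value. The difference was 0.25 (standard error 0.10, limma adjusted p = 0.647), a 1.19-fold ratio. Ccnb2, a B-type cyclin that partners Cdk1, was 4.52, 4.34 and 4.48 on d3 and 4.54, 4.52, 4.52 and 4.81 on d7, all under the background. Its groups were apart by 0.0013, far less than the spread within either. Aurka, the Aurora kinase of spindle poles, was 5.54 on 6 arrays and 5.55 on d3 replicate 3. Nek2, a centrosome kinase, was 4.01 on every array but d7 replicate 5 (4.10). Melk, a kinase of dividing progenitor cells, lay between 4.00 and 4.10.

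The 3 spindle checkpoint kinases hold back chromosome separation until all chromosomes are attached, and none passed the test. Bub1b was 5.38, 5.43 and 5.49 on d3 and 5.41, 5.43, 5.43 and 5.53 on d7, with overlapping groups and a difference of 0.02 (95% confidence interval -0.08 to 0.12). Bub1 was 5.12 on 6 arrays and 5.11 on d3 replicate 4. Ttk, the kinase that recruits the checkpoint, lay between 3.97 and 4.02 on 6 arrays and was 4.19 on d7 replicate 8.

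Of the 6 kinetochore and centromere genes, 0 passed, 4 had the higher mean on d7, 1 the lower and 1 the same. Cenpa encodes the histone H3 variant that marks the centromere. It was 7.05, 6.93 and 7.02 on d3 and 7.35, 7.51, 7.33 and 7.63 on d7. Every value was above the background, the lowest d7 array was 0.28 above the highest d3 array, and the range within d3 (0.12) was smaller than that gap while the range within d7 (0.30) was slightly larger. The means were 7.00 ± 0.06 (SD, n = 3) and 7.45 ± 0.14 (SD, n = 4), a difference of 0.46 (95% confidence interval 0.25 to 0.67), or 1.37-fold. The unadjusted limma p was 0.00191, and the adjusted p, 0.233, was the smallest among the 38 genes.

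Ndc80, which binds microtubules at the kinetochore, was 5.55, 5.67 and 5.46 on d3 and 5.55 on all 4 d7 arrays. The difference was -0.01 (95% confidence interval -0.13 to 0.11), and d3 replicates 3 and 4 lay on either side of the d7 value. Nuf2 and Spc25, of the same Ndc80 complex, lay between 4.69 and 4.80 and between 4.57 and 4.72. Cenpe, a kinetochore motor, lay between 4.22 and 4.28, and Cenpf, a large kinetochore protein, had the value 4.06 on all 7 arrays. These 4 were under the background throughout.

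The 3 genes of the chromosomal passenger complex, which corrects faulty attachments and later works at the midzone, did not pass. Aurkb, its kinase, was 5.04, 5.22 and 5.22 on d3 and 5.22, 5.22, 5.22 and 5.50 on d7, where replicate 8 alone exceeded the background. Birc5 (survivin) lay between 3.99 and 4.12. Cdca8 (borealin) was 5.43 on all 7 arrays.

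Of the 7 spindle motors and microtubule proteins, 0 passed, 5 had the higher mean on d7 and 2 the same. Tpx2, which starts microtubules near chromosomes and activates Aurka, was 5.48, 5.64 and 5.50 on d3 and 5.64, 5.64, 5.64 and 5.72 on d7. Arrays of either day met at 5.64, and the difference was 0.12 (standard error 0.05, limma adjusted p = 0.647), a 1.08-fold ratio. Hmmr, a spindle protein also known as a hyaluronan receptor, was 4.07, 4.12 and 4.03 on d3 and 4.36, 4.20, 4.12 and 4.38 on d7, all under the background. The deposited values differed by 0.19 (standard error 0.07, limma adjusted p = 0.647), and the groups met at 4.12. Kif11, the motor that pushes spindle poles apart, was between 5.10 and 5.17 except on d7 replicate 6 (5.53). Nusap1, which bundles microtubules, lay between 4.06 and 4.17 on d3 and between 4.17 and 4.35 on d7. Dlgap5, a spindle assembly factor, lay between 4.77 and 4.79. The motors Kif15 and Kif2c had 1 value on all arrays, 4.31 and 4.26.

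All 7 midzone and cytokinesis genes had means under the background on both days and the higher mean on d7, by 0.02 to 0.12, and 0 passed. Ect2, the exchange factor that turns on RhoA at the cleavage furrow, was 5.17, 5.00 and 5.17 on d3 and 5.17, 5.21, 5.17 and 5.38 on d7. Kif23, the motor subunit of centralspindlin, was 5.26 on all 3 d3 arrays and 5.26, 5.26, 5.20 and 5.48 on d7. Its partner Racgap1 was between 4.60 and 4.62 except on d7 replicate 8 (4.77). In all 3 the highest array was d7 replicate 8, and the days overlapped or met.

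Prc1, which bundles midzone microtubules, lay between 4.24 and 4.32 on d3 and between 4.32 and 4.52 on d7. Anln (anillin), a scaffold of the contractile ring, lay between 4.17 and 4.30 on d3 and between 4.30 and 4.38 on d7. The midzone motors Kif20a and Kif4 ranged from 4.79 to 4.91 and from 3.89 to 3.95.

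The 3 genes of mitotic ubiquitination had differences of 0.06 to 0.09. Ube2c, the enzyme that passes ubiquitin to the anaphase-promoting complex, was 5.42, 5.42 and 5.26 on d3 and 5.42, 5.42, 5.46 and 5.52 on d7. Both days met at 5.42, and d3 replicate 4 was the only array under the background. Cdc20, which activates that complex, was between 4.00 and 4.06 except on d7 replicate 5 (4.21), and Cdca3, a trigger of mitotic entry, was between 3.76 and 3.82 except on the same array (3.97).

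Both genes of chromosome structure had the higher mean on d7. Mki67 encodes Ki-67, a coat of mitotic chromosomes and the common marker of cycling cells. It was 6.80, 6.92 and 6.59 on d3 and 7.45, 7.21, 7.21 and 8.14 on d7, above the background on every array. The groups did not overlap, and d7 replicate 8 lay 0.69 above the next array, further than the lowest d7 array lay above the highest d3 array (0.29). The means were 6.77 ± 0.17 (SD, n = 3) and 7.50 ± 0.44 (SD, n = 4). The difference of 0.73 (95% confidence interval 0.10 to 1.37), or 1.66-fold, had a limma adjusted p of 0.647. Without d7 replicate 8 it was 0.52. Top2a, the topoisomerase that untangles sister chromosomes, was 5.34, 5.31 and 5.26 on d3 and 5.34, 5.34, 5.34 and 5.60 on d7, so that replicate 8 alone was above the background.

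**Figure D4:**
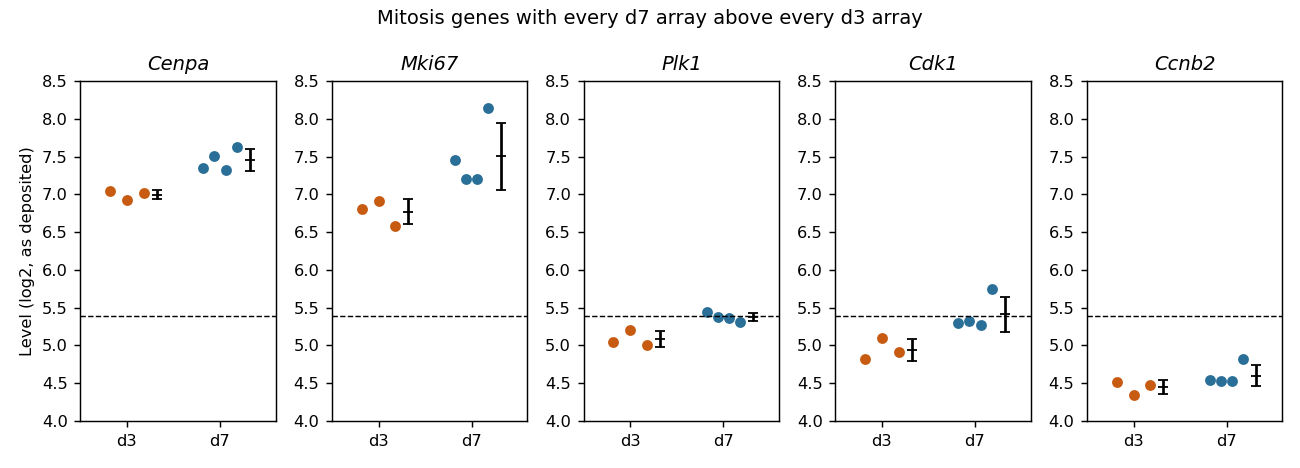
Level (log2, as deposited) of the 5 mitosis genes in which every d7 array lay above every d3 array, 1 point per array in the order of the replicate numbers, with the mean and SD as black bars and the array background of 5.39 as a dashed line. Cenpa and Mki67 lie above the line on both days, Plk1 and Cdk1 lie around it on d7, and Ccnb2 lies under it with groups apart by 0.0013.

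The arrays within d7 were not alike. Of 32 genes with a single highest array, that array was d7 replicate 8 in 18, d7 replicate 5 in 9, d7 replicate 6 in 3, d3 replicate 3 in 2 and d7 replicate 7 in 0. Of 31 genes with a single lowest array, it was d3 replicate 4 in 15, d3 replicate 1 in 7, d3 replicate 3 in 6 and d7 replicate 7 in 3. The mean level over the 38 genes was 4.81, 4.83 and 4.79 on the d3 arrays and 4.91, 4.89, 4.87 and 4.99 on d7 replicates 5 to 8. Without d7 replicate 8, 30 of the 38 genes had a higher mean on d7, 4 were at an unadjusted p under 0.05 (Cdk1, Cenpa, Mki67 and Plk1), and 5 had groups that did not overlap. Without d3 replicate 1 or without d3 replicate 4, 2 genes were at an unadjusted p under 0.05 (Cenpa and Plk1). For these cutoffs, the shares of all probe sets with an array left out were not counted. How often each array was highest or lowest over all probe sets was not counted either.

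**Figure D5:**
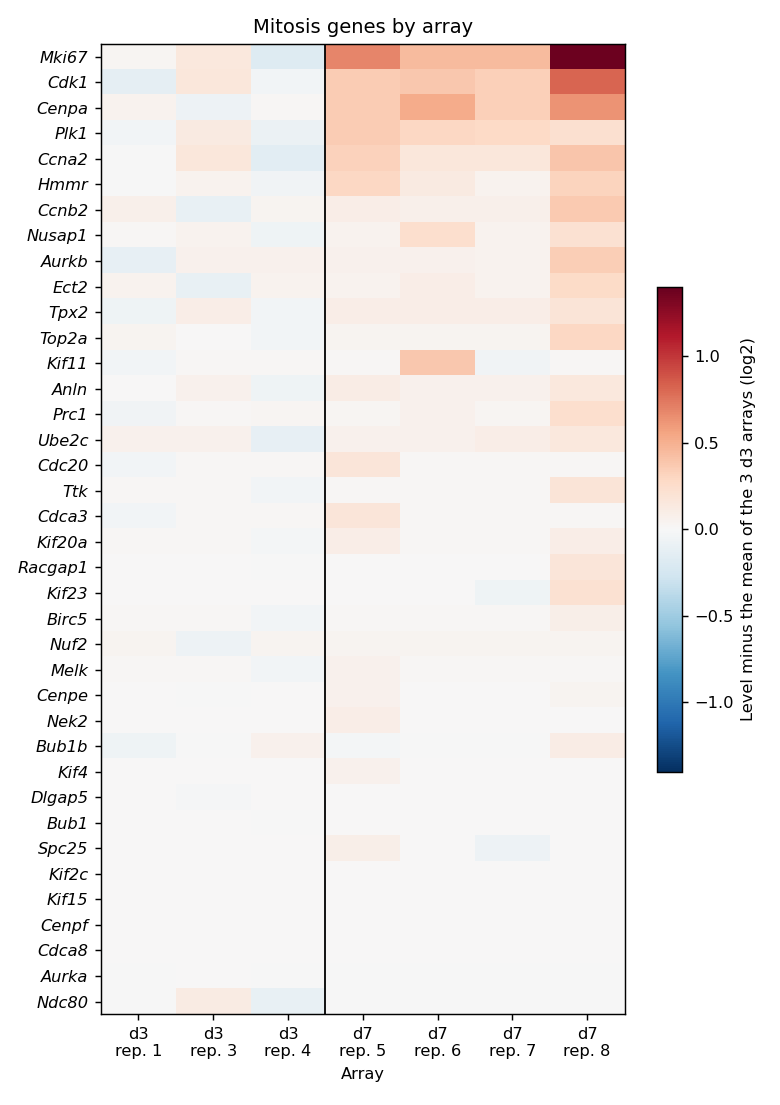
Level of each mitosis gene on each array minus the mean of the 3 d3 arrays (log2, colour scale from blue for lower to red for higher), genes ordered by their d7 minus d3 difference. The strongest red lies in d7 replicate 8, where Mki67 was 8.14 against a d3 mean of 6.77, and the bottom rows are nearly white.

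Many values were shared between arrays, counted as the same only where the deposited log2 values, given to 5 decimals, were identical. Of the 38 genes, 4 had 1 value on all arrays, 27 had 4 or fewer different values, 8 had 5 or 6, and 3 (Cdk1, Cenpa and Plk1) had 7. Over all probe sets, 18.4% had 7 different values and 5.69% had 1. The sources used here do not say how the ties arose, and the narrow intervals of Aurka, Bub1 and Dlgap5 rest on 2 different values each.

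Wider parts of the cell cycle were counted from the same fit. Of 66 other mitosis genes, 0 passed, 41 had the higher mean on d7 and 14 the lower, with a median difference of 0.02 and 46 at the background on both days. Pttg1 (securin), which guards cohesin until anaphase, was 8.53, 8.25 and 8.28 on d3 and 7.93, 7.95, 8.02 and 8.09 on d7. It was the 1 gene of that list with every d7 array below every d3 array, a difference of -0.36 (standard error 0.08, limma adjusted p = 0.365), and it was chosen after its values were seen. By the rule of the highest level, Bub3, a checkpoint protein, had d3 and d7 means of 12.14 ± 0.11 (SD, n = 3) and 12.02 ± 0.18 (SD, n = 4), and Cenpt, a kinetochore protein, had 8.53 ± 0.28 (SD, n = 3) and 8.57 ± 0.04 (SD, n = 4).

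Cohesin and condensin hold and compact chromosomes, and the anaphase-promoting complex ends mitosis. In both lists 15 genes were above the background on both days, of 17 and of 15 measured, and 0 passed in either. The medians of their differences were 0.00 and 0.01. Many of these genes also serve cells that do not divide. Of 42 DNA replication genes, 31 were above the background on both days, 0 passed, 28 had the higher mean on d7 and 12 the lower, with a median of 0.04. Pcna, the sliding clamp of DNA polymerases that also acts in repair, was 13.21, 13.18 and 13.36 on d3 and 13.63, 13.76, 13.70 and 13.78 on d7. Its groups did not overlap, and the difference was 0.47 (standard error 0.06, limma adjusted p = 0.0966). Gins4, the next of the list by level, went the other way, with d3 and d7 means of 9.49 and 9.39 and overlapping groups.

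The 21 transcription regulators of mitosis genes had 0 that passed and a median difference of 0.00, with Rb1 at means of 12.30 and 12.33 and E2f4 at 10.42 and 10.18. Of 16 cell cycle brakes, 0 passed. Named after their values were seen, Gadd45g, a stress-induced growth arrest gene, had every d7 array above every d3 array, with a difference of 1.05 (standard error 0.17, limma adjusted p = 0.176), and Btg2, an antiproliferative gene, had every d7 array below every d3 array, with a difference of -0.51 (standard error 0.10, limma adjusted p = 0.279). By the rule of the highest level, 2 more are given. Cdkn1a (p21), an inhibitor of cyclin-dependent kinases, was 15.72, 15.32 and 15.65 on d3 and 15.72, 15.72, 15.99 and 15.72 on d7, with overlapping groups, and Ccng1 had means of 12.63 and 12.43. Of 14 D cyclins and growth signals of macrophages, 5 had the higher mean on d7 and 8 the lower, and 1 passed the test. It was Il4ra, the receptor chain for IL-4 and IL-13, at 15.42, 15.20 and 15.76 on d3 and 16.98, 17.14, 16.88 and 17.07 on d7, with means of 15.46 ± 0.28 (SD, n = 3) and 17.02 ± 0.11 (SD, n = 4), a difference of 1.56 (standard error 0.14, limma adjusted p = 0.048). The CSF-1 receptor gene Csf1r was 14.72 ± 0.35 (SD, n = 3) and 14.97 ± 0.06 (SD, n = 4), with d3 replicates 1, 3 and 4 at 14.9, 14.3 and 14.9. Ccnd2, a D-type cyclin named for its size after its values were seen, was 8.55, 8.52 and 7.62 on d3 and 7.39, 7.17, 6.98 and 7.18 on d7, a difference of -1.05 (standard error 0.26, limma adjusted p = 0.432).

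The label of the cells was read from marker lists. All 10 macrophage markers were above the background on both days, Adgre1 (F4/80) at d3 and d7 means of 16.84 and 16.85 and Itgam (CD11b) at 17.13 and 17.10. Of the 10, 7 had the higher mean on d7 and 3 the lower. Only Mrc1 (CD206) passed, rising by 1.42 (limma adjusted p = 0.0263). The 5 measured monocyte markers had the lower mean on d7 with groups that did not overlap, and 0 passed. The median of that list was between 12.36 and 12.83 on the d3 arrays and between 11.50 and 11.69 on the d7 arrays. Of 8 neutrophil markers, 7 were above the background on both days, with list medians from 10.29 to 10.81 on d3 and from 9.22 to 10.40 on d7, and S100a8 was highest on d7 replicate 6 (12.06). Of the 8, 4 had the higher mean on d7 (S100a8, S100a9, Ly6g and Cxcr2) and 4 the lower. Retnlg, one of the lower, fell by 4.85 on d7 (limma adjusted p = 0.0432). Mmp8 and Mmp9 had every d7 array below every d3 array without passing. Fibroblast (10 measured), keratinocyte (5), mast cell (5) and erythroid (2) lists had 0 genes above the background on either day, and the granulocyte precursor list (8) had 0 on both days and Cebpe on d3. Of the other lists, Il7r of 10 T and NK cell genes, Cd79b of 4 B cell genes, Pecam1 and Kdr of 6 endothelial genes and Ccr7 of 6 dendritic cell genes were above it on at least 1 day. The part of the monocyte and neutrophil marker differences in the mitosis gene levels was not tested. The array medians lay between 4.14 and 4.22, and the median of the positive controls was 9.78 on d3 replicate 3 and 10.01 to 10.09 on the others.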

How the data were processed

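RNA of F4/80+ CD11b+ wound macrophages was hybridized to Affymetrix Mouse Transcriptome arrays, 1 per sample. The deposited values are log2 probe set levels that the authors made with Affymetrix Expression Console (version and normalization between arrays not given in the sources used here), and the log2 scale was read from the values (1.89 to 19.9). The labels and the methods name different labelling kits. Of 72688 probe sets, 6732 controls were left out. Of the 65956 tested, 31292 had 1 gene symbol, 1522 several and 33142 none listed. The d7 minus d3 difference was fitted without covariates in limma 3.58.1 (lmFit and eBayes, R 4.3.3). Two-sided p-values were adjusted by Benjamini-Hochberg across the whole table at a threshold of 0.05, with 95% intervals. The fit was also run on simulated data, where the added differences exceeded those of the members. They were put only in untied probe sets above the background, so that run does not show how small differences like the members' would fare. The number of arrays limits the precision. Folds are powers of 2 of differences and were given only where both means exceeded the background of 5.39. All measured members were named, and of each related list the genes past the threshold, or else up to 2 chosen by level, with exceptions stated. The members and lists were chosen with earlier results of these data known. Other settings were robust eBayes, a mean-variance trend, array weights, the methods' t-test, median centring, quantile normalization, filters at the background and at the median level, averaged or single probe sets per gene, an adjusted p under 0.01, a 2-fold minimum, and leaving out each array.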

Additional observations from a re-analysis of the deposited data

Results flagged for a closer look

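In 16 of the 38 mitosis genes, 1 of the 4 d7 arrays stood far from the other 3 by Dixon's test, which chance meets in about 1 in 20 groups. Where 3 arrays share nearly 1 value, as often here, any different value on the fourth array meets it. The share over all probe sets was not counted, so the 16 are not read as a trait of the mitosis genes.

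Replicate 8 was the high array in 9 genes, with levels (log2) of 5.75 for Cdk1, 4.81 for Ccnb2, 4.19 for Ttk, 5.50 for Aurkb, 4.12 for Birc5, 5.72 for Tpx2, 4.77 for Racgap1, 4.52 for Prc1 and 5.60 for Top2a. Of these, Cdk1, Aurkb, Tpx2 and Top2a were above the array background there. Replicate 5 was the high array in 5 genes, all under the background, with 4.10 for Nek2, 4.10 for Melk, 3.95 for Kif4, 4.21 for Cdc20 and 3.97 for Cdca3. Replicate 6 was the high array in 2 genes, with 5.53 for Kif11 and 4.80 for Nuf2, where the whole d7 range of Nuf2 was 0.01. Replicate 7 stood apart in 0.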

How the results depend on the processing

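The count of mitosis genes called was 0 in each alternative run except the methods' t-test without adjustment. That gave 4 (Cdk1, Plk1, Cenpa and Mki67), beside 3652 of all 65956 probe sets. The number with a higher mean on d7 ran from 29 to 38 (38 after median centring, which moves every difference up by 0.0205, and after quantile normalization) and the median difference from 0.04 to 0.08. The adjusted p of Cenpa ran from 0.0656 (above the background) to 0.613 (without d7 replicate 6), and that of Plk1 from 0.105 to 0.702.

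Small differences turned sign. Aurka was 0.0095 after quantile normalization and 0.0164 after median centring, and Ndc80 was 0.0039 and 0.0124 in the same order and 0.0304 with array weights. With 1 array left out, Ndc80 ran from -0.0597 (without d3 replicate 4) to 0.0477 (without d3 replicate 3), Bub1b from -0.0101 (without d3 replicate 1; -0.008 without d7 replicate 8) to 0.0478, Kif23 from -0.0186 (without d7 replicate 8) to 0.0733, Spc25 from -0.0241 (without d7 replicate 5) to 0.0256 and Kif11 from -0.0039 (without d7 replicate 6) to 0.1402. No other member's difference crossed 0 in the alternatives run.

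The count of all probe sets called (77) was 3652 with the methods' t-test unadjusted and 13 with its Benjamini-Hochberg adjustment, 223 after median centring, 169 after quantile normalization, 374 among probe sets above the background, 208 among those reaching the median level, 6 at an adjusted p under 0.01 and 45 with a 2-fold minimum. With 1 array left out it ran from 1 (without d7 replicate 8) to 212 (without d3 replicate 1). The causes were not tested. Leaving out 1 array moved the count of members at an unadjusted p under 0.05 between 2 and 7. The count whose groups did not overlap moved between 5 and 10 (without d3 replicate 3). Leaving out an array can only keep or raise that second count. The shares of all probe sets were not counted for these runs, so the rise is not read as a result about the members.

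No paired analysis was possible because the d3 and d7 samples share no replicate number. The 27 members at the background on both days have only an upper bound there, and a p that misses the threshold does not show that the days were alike.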
